A study of Mus musculus with 6 samples.

Results

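The genes described here encode the nuclear subunits of the mitochondrial respiratory chain and ATP synthase. They were taken from the table of read counts by symbol: names beginning with Ndufa, Ndufb, Ndufc, Ndufs or Ndufv and a digit, with Uqcr, with Cox4 to Cox8 or with Atp5, together with Cyc1 and Cycs. The pattern matched 91 symbols, and 7 pseudogenes whose names end in -ps and a number were left out, so that 84 of 46095 genes were members. By symbol, 37 belonged to complex I, 9 to complex III, 18 to complex IV and 19 to complex V, and Cycs encodes the carrier cytochrome c. The pattern also kept 2 other pseudogene names, Atp5c1-ps and Atp5l2-ps, and the genes Atp5s and Atp5sl, which are named after ATP synthase but are not subunits of the enzyme. Ndufa4 and its paralogue Ndufa4l2 were counted with complex I by name, although the NDUFA4 protein is now placed in complex IV.

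Bone marrow-derived macrophages of C57BL/6 mice aged 56 days were compared between animals lacking Cd226 (Cd226-/-) and wild-type animals (WT), with 3 libraries per genotype. CD226, also called DNAM-1, is an activating adhesion receptor of lymphocytes and myeloid cells. All cells, WT included, had been grown for 7 d in M-CSF at 20 ng/ml, the growth factor that turns marrow precursors into macrophages, before 24 h of IFN-γ (20 ng/ml) plus LPS (100 ng/ml). No unstimulated cells were part of the comparison. The labels do not say whether the 3 libraries of a genotype came from separate mice or cultures, nor which part of Cd226 was deleted, and p-values reflect no more than the spread among these 6 libraries, which may be technical.

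Complex I takes electrons from NADH, complex III passes them from ubiquinol to cytochrome c, complex IV reduces oxygen, and complex V makes ATP from the proton gradient that complexes I, III and IV build. A few catalytic and membrane subunits are encoded by mitochondrial DNA, and all the others, described here, by nuclear genes. Macrophages stimulated with LPS and IFN-γ are known for a shift of ATP production to glycolysis and for nitric oxide that damages and inhibits respiratory complexes, which is why the abundance of subunit transcripts is of interest in these cells.

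Total counts were 16838527 to 21658061 per library, and 13215 genes had enough counts to be tested. Cd226-/- replicate 1 stood apart from replicates 2 and 3 on the second principal component, which held 15.5% of the variance of log expression, against 54.4% for the first, which separated the genotypes. Cd226 itself was barely detected, with 11, 10 and 8 counts in the Cd226-/- libraries and 5, 17 and 23 counts in the WT libraries, so that its level was no check of the labels (edgeR adjusted p = 0.48). All 8 macrophage markers examined were abundant, at a summed level of 19212 to 20005 CPM in Cd226-/- libraries and 17932 to 19895 CPM in WT libraries, where CPM is a count relative to the total of its library after scaling by the trimmed mean of M-values (TMM). Of these markers 4 were higher and 3 lower in Cd226-/- cells. Transcripts typical of liver were counted in Cd226-/- replicates 2 and 3, the albumin gene Alb having 0, 15.9 and 15.2 CPM in the Cd226-/- libraries, against 0, 0 and 0 CPM in the WT libraries. The count of members called is therefore also given with replicate 1 as the only Cd226-/- library.

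A larger part of the subunit transcripts was higher in Cd226-/- macrophages than lower, by small amounts, and most were not called. Of the 84 members 76 were tested, 30 were higher, 2 were lower and 44 were not called at an adjusted p under 0.05 (edgeR quasi-likelihood F-test, with Benjamini-Hochberg adjustment across the 13215 genes). Among all genes tested 30.9% were called, 16.1% higher and 14.8% lower. The share of higher members, 39.5%, was above this background and the share of lower members, 2.63%, below it. Member transcripts were short, with a median of 861 bases against 2882.5 for all genes tested. Of all tested genes with transcripts under 750 bases, 29.0% were higher and 4.43% lower. With offsets for GC content and length, described below, 20 members were higher and 6 lower. The 30 risers were 1.13-fold to 1.63-fold higher. The median log2 fold change, Cd226-/- over WT, was 0.18 over the members tested and -0.0045 over all genes tested. In 38 members every Cd226-/- library lay above every WT library, and in 5 every one lay below (22.1% and 22.3% of all genes tested). With replicate 1 as the only Cd226-/- library, 21 members were higher and 1 was lower, against 11.7% and 9.44% of all genes tested in that comparison.

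**Figure D1:**
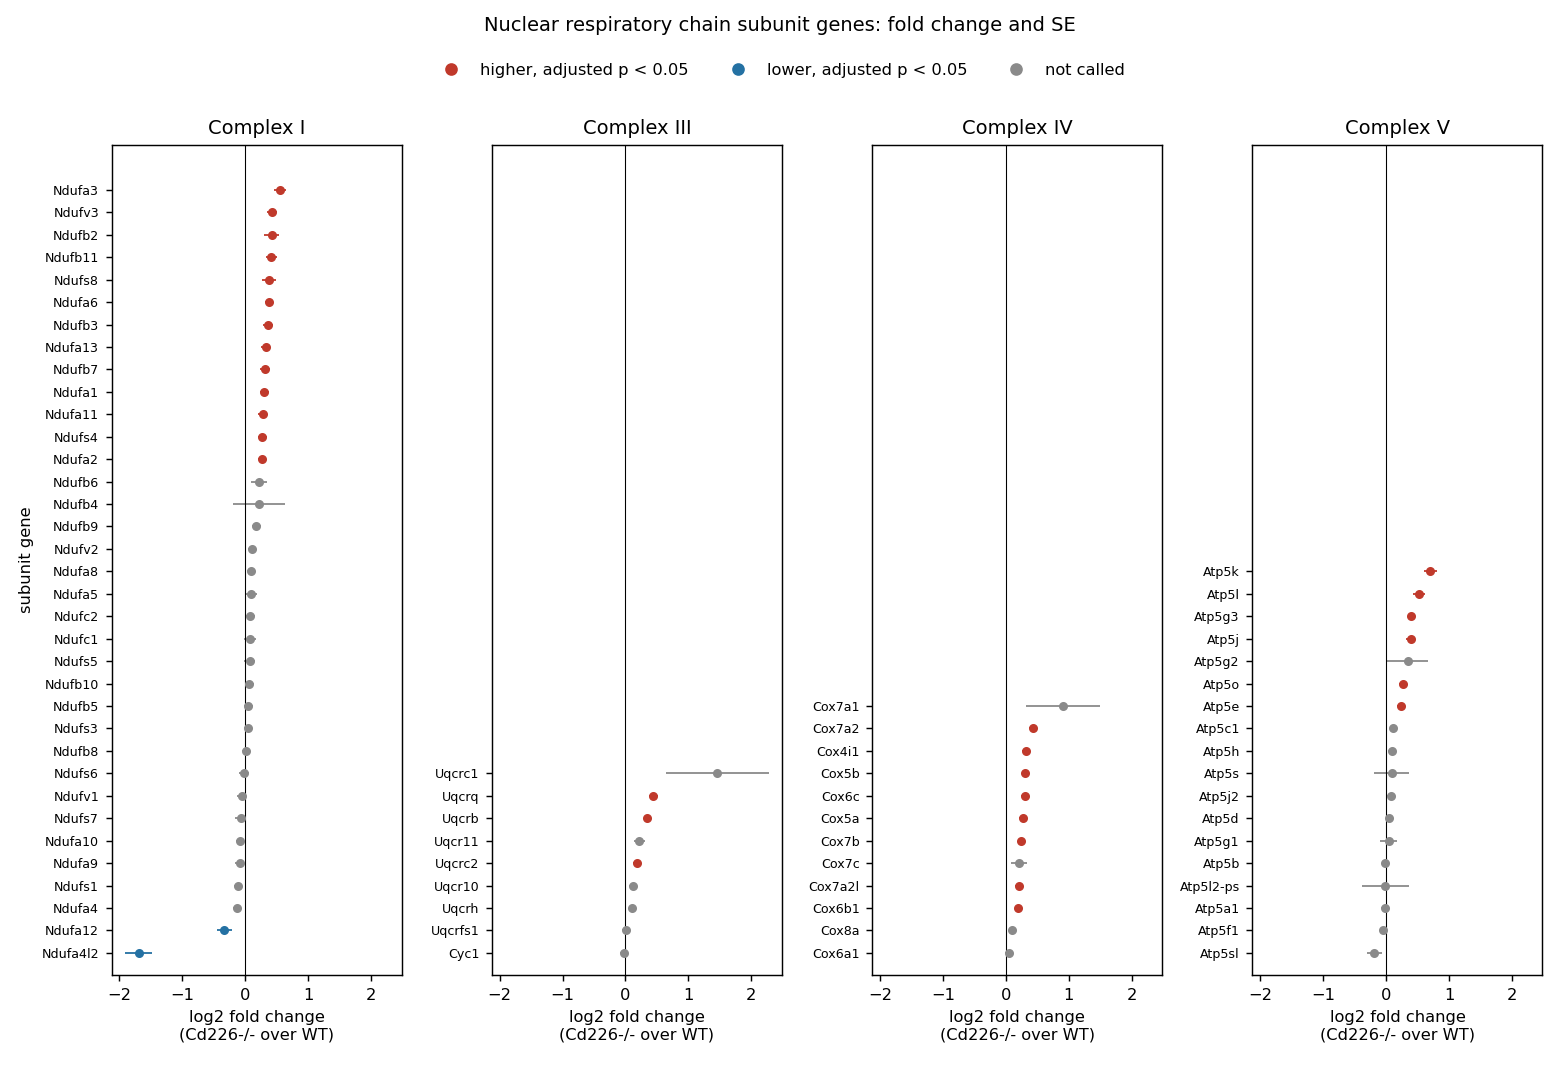
Log2 fold change (Cd226-/- over WT, horizontal axis) of tested subunit genes of complexes I, III, IV and V, with bars of 1 SE from 3 libraries per genotype. Red points were higher and blue points lower at an adjusted p under 0.05. Most called points lie between 0.18 and 0.56, Atp5k reaches 0.70 and Ndufa4l2 lies at -1.69.

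By complex, the share of higher members was largest in complex IV, where 8 of 12 tested members were higher, with a median log2 fold change of 0.26. Complex I had 13 higher and 2 lower of 36 tested (median 0.090), complex III 3 higher of 9 (median 0.18) and complex V 6 higher of 18 (median 0.094), and Cycs was not called. Members counted with complexes III, IV and V included none that were lower. Over all genes tested the shares were 16.1% higher and 14.8% lower, and with transcripts under 750 bases 29.0% and 4.43%. Median transcript lengths of the tested members were 921, 1363, 652 and 838 bases in complexes I, III, IV and V. Ndufa4 and Ndufa4l2 were counted with complex I by name, so the values of complex IV leave them out. Their log2 fold changes were -0.13 and -1.69, and of the pair only Ndufa4l2 was called lower. The difference between complexes was not tested. Summed over its members, complex IV reached 1139.7, 1172 and 1127 CPM in the Cd226-/- libraries, against 947, 998 and 987 CPM in the WT libraries, a ratio of means of 1.17. The ratios were 1.13 for complex III, 1.08 for complex I and 1.04 for complex V. In each of the 4 complexes the 3 Cd226-/- sums lay above the 3 WT sums. Over all members the sum was 5285 ± 108 CPM in Cd226-/- cells and 4851 ± 85.8 CPM in WT cells (SD, n = 3 each), a ratio of 1.09. In bulk RNA, a different number of cells that express a gene and a different amount of its RNA per cell cannot be told apart.

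**Figure D2:**
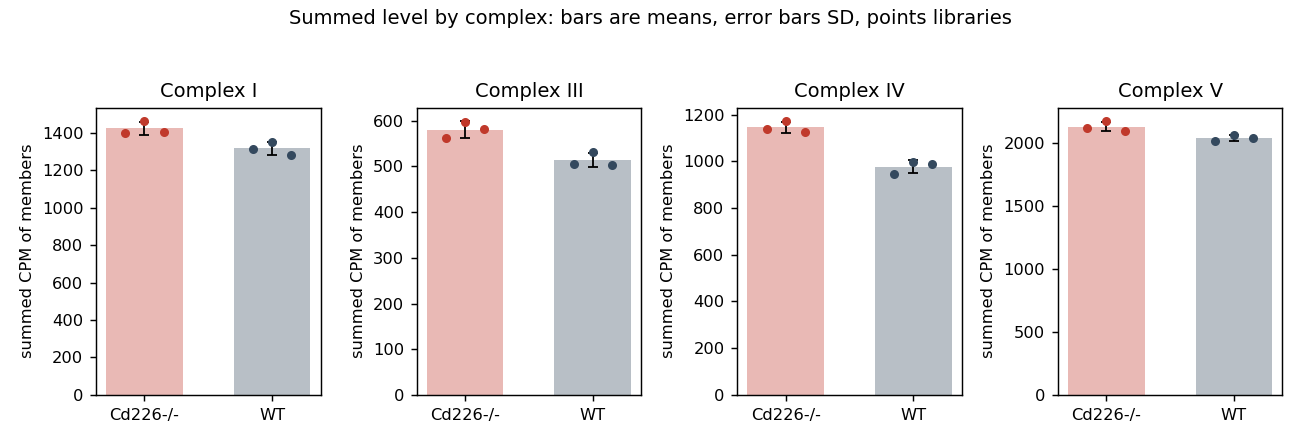
Summed CPM of the members of each complex by genotype, with bars at the mean of 3 libraries, error bars of 1 SD and a point for each library. The Cd226-/- points lie above the WT points in all 4 panels, with the widest gap in complex IV (1127 to 1172 CPM against 947 to 998 CPM).

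Levels of different genes can be compared per length of transcript, here as CPM per kilobase of 1 representative transcript of each gene. The catalytic β subunit gene of ATP synthase, Atp5b, had the highest level of any member, 363 ± 13.5 in Cd226-/- cells and 365 ± 2.86 in WT cells CPM per kb (mean ± SD, n = 3). Within complex IV the highest were Cox8a, Cox6a1 and Cox6b1, which encode small structural subunits, Cox8a having 241 ± 12.7 in Cd226-/- cells and 225 ± 7.65 in WT cells CPM per kb. Complex III was led by Uqcr10, Uqcrh and Uqcrb, also small subunits, with 160.5, 159.7 and 156.7 CPM per kb in Cd226-/- cells and 147.8, 148.7 and 123 CPM per kb in WT cells. Of complex I, Ndufa1, Ndufa4 and Ndufb8 were highest over both genotypes together, although Ndufa2 lay above Ndufb8 in Cd226-/- cells (98.3 and 91.0 CPM per kb), Ndufa1 having 126 ± 4.84 in Cd226-/- cells and 103 ± 10.3 in WT cells CPM per kb. Low levels per length of Atp5g1, Ndufb2 and Cycs come with representative transcripts of 4715, 4371 and 3123 bases.

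**Figure D3:**
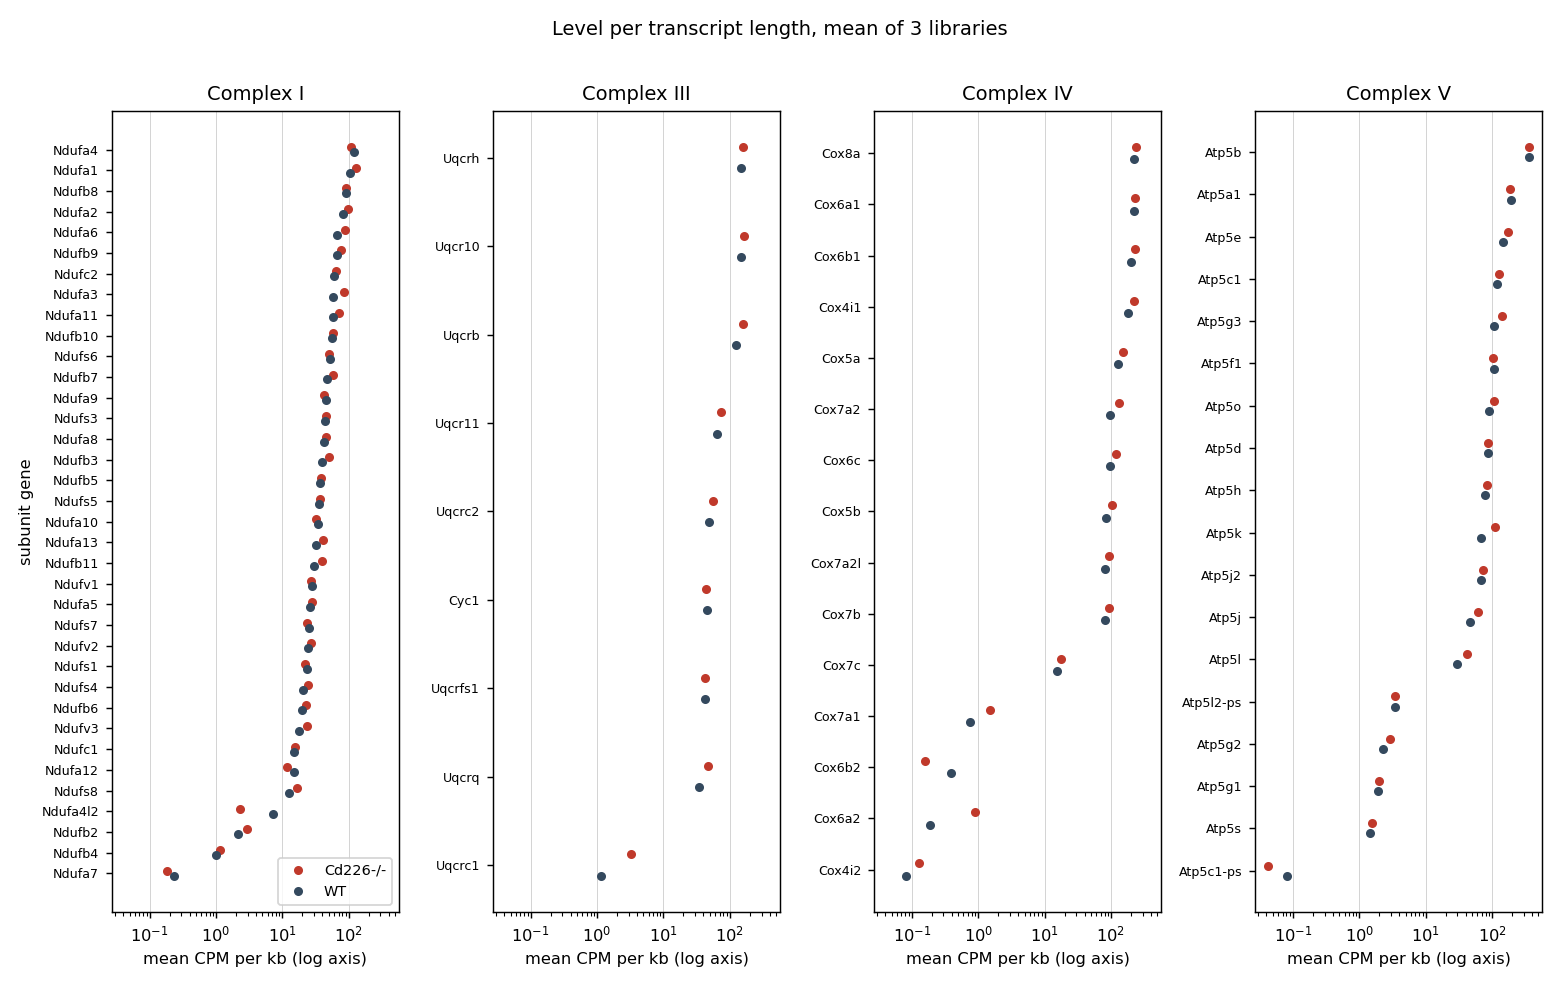
Mean level of members with counts in both genotypes, in CPM per kb of the representative transcript (log axis), by complex and ordered by the WT level, with Cd226-/- in red above WT in dark blue. Atp5b is highest at 363 CPM per kb in Cd226-/- cells and 365 CPM per kb in WT cells, and the tissue-restricted isoforms of complex IV lie below 2 CPM per kb.

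Promoters of respiratory genes are known for sites of the factors NRF1, GABPA (an ETS factor, also called NRF2), YY1 and ESRRA, so their letters were searched in windows of 250 bases before to 50 bases after the start of each gene in RefSeq (build GRCm38.p6). The motifs were CCGGAAG for GABPA, AAGATGGC for YY1, TCAAGGTCA for ESRRA and, for NRF1, the palindrome shown in capitals in Atp5k, on both strands, and a stretch of bases could count for more than 1 motif. Windows were given for 67 members. A gene could have more than 1 window, with a mean of 1.09 for members and 1.28 for all tested genes, and a motif in any window counted. Any of the 4 motifs was present in 28 of the 67 (41.8%) and in 26.4% of the 9859 tested genes with a window. Among the members higher in Cd226-/- cells 11 of 24 held a motif (45.8%), against 17 of 38 that were tested and not called (44.7%). YY1 letters were in 16.4% of members and 5.46% of all tested genes, NRF1 letters in 7.46% and 2.35%, GABPA letters in 20.9% and 20.3%, and ESRRA letters in 1.49% and 0.314%. The 250 bases before the start are shown for the member with the largest rise among those that hold a motif there in complexes I, IV and V, on the strand of the gene, with motif letters in capitals.
Ndufb7 (complex I, chr8:83566508-83566757, plus strand): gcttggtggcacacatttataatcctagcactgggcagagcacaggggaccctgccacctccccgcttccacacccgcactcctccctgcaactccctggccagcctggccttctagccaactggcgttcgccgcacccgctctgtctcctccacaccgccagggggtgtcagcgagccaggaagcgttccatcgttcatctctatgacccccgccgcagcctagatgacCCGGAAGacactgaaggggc
Cox6b1 (complex IV, chr7:30626115-30626364, minus strand): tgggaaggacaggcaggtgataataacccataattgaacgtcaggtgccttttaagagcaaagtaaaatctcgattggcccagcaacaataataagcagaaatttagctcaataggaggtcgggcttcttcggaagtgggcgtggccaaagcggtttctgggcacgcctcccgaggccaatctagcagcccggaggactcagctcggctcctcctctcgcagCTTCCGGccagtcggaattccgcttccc
Atp5k (complex V, chr5:108434400-108434649, minus strand): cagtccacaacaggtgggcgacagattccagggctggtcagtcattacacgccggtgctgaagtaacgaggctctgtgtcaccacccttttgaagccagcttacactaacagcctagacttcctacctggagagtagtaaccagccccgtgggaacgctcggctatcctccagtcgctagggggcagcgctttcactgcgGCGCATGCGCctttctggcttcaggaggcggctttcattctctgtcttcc
The capitals mark a GABPA match in Ndufb7, a GABPA match on the opposite strand in Cox6b1 and an NRF1 match in Atp5k. They begin at positions -20, -28 and -50 relative to the RefSeq start. In the GENCODE annotation these genes begin within the stretches shown, at chr8:83566671, chr7:30626151 and chr5:108434448. The matches in Ndufb7 and Cox6b1 then lie inside the gene, and the match in Atp5k lies across the GENCODE start. Of 66 members with a window and a GENCODE transcript, 54 had the first 30 bases after the RefSeq start in such a transcript. A match is a description of letters, and binding was not measured.

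Complex I has a core conserved from bacteria, whose nuclear subunits carry the flavin, the iron-sulphur clusters and the path to ubiquinone, and a shell of accessory subunits that assemble and stabilise it. Of the 27 accessory genes tested 12 were higher (44.4%) and 1 was lower (3.70%), and of the 7 core genes 1 was higher (14.3%). Among all genes tested 16.1% were higher and 14.8% lower. Median transcript lengths were 763 bases for the accessory genes and 1623 bases for the core genes. With offsets for GC content and length, 7 accessory genes were higher and 3 lower, and 1 core gene was higher. The difference between these classes was not tested. Ndufs1, the largest core subunit, had 56.4, 57.02 and 59.8 CPM in the Cd226-/- libraries, against 64.1, 62.5 and 61.1 CPM in the WT libraries. Its WT libraries all lay above the Cd226-/- libraries, but the difference did not pass the test (log2 fold change -0.11 ± 0.059 SE, edgeR adjusted p = 0.149). With scaling by library size alone, under which 20.9% of all genes were lower, it was called lower (edgeR adjusted p = 0.0352). Ndufv1, which binds NADH and the flavin, averaged 45.03 ± 1.72 CPM in Cd226-/- cells, against 46.9 ± 1.66 CPM in WT cells and was likewise not called (log2 fold change -0.058 ± 0.066 SE, edgeR adjusted p = 0.538). The log2 fold changes of Ndufs3, Ndufs7 and Ndufv2, which were not called either, were 0.049, -0.073 and 0.10. The core gene that passed the test was Ndufs8, a subunit that carries iron-sulphur clusters, at 15.8, 16.8 and 16.9 CPM in the Cd226-/- libraries, against 11.1, 13.5 and 13.3 CPM in the WT libraries. All 3 Cd226-/- libraries were higher (log2 fold change 0.38 ± 0.11 SE, edgeR adjusted p = 0.0104), a call that was lost without WT replicate 1 (edgeR adjusted p = 0.0648).

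Ndufa3, an accessory membrane subunit (chr7:3617373-3620327, plus strand, GRCm38), rose most within complex I. It had 38.7, 50.6 and 42.9 CPM in the Cd226-/- libraries, against 30.4, 32.7 and 26.9 CPM in the WT libraries. The lowest Cd226-/- library, replicate 1, was above the highest WT library, and the difference was 1.47-fold (log2 fold change 0.56 ± 0.10 SE, edgeR adjusted p = 0.000214). Ndufv3, a small subunit of the NADH-oxidising module, had 38.9, 38.9 and 35.5 CPM in the Cd226-/- libraries, against 27.01, 27.6 and 29.7 CPM in the WT libraries. Its groups were separate by more than the range of either (log2 fold change 0.42 ± 0.077 SE, edgeR adjusted p = 0.000202). Ndufb11, needed for assembly of the membrane arm, averaged 35.8 ± 1.77 CPM in Cd226-/- cells, against 26.9 ± 3.75 CPM in WT cells (log2 fold change 0.41 ± 0.091 SE, edgeR adjusted p = 0.00141). The membrane-arm subunit gene Ndufb2 averaged 12.8 ± 1.39 CPM in Cd226-/- cells, against 9.54 ± 0.479 CPM in WT cells (log2 fold change 0.42 ± 0.12 SE, edgeR adjusted p = 0.0115), and its call was lost without Cd226-/- replicate 2 (edgeR adjusted p = 0.0775) and without WT replicate 3 (edgeR adjusted p = 0.0538).

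The other 8 accessory risers changed by 1.20-fold to 1.29-fold. Ndufa6, an LYR-motif protein that binds the acyl carrier protein, averaged 50.99 ± 1.04 CPM in Cd226-/- cells, against 39.4 ± 0.920 CPM in WT cells, and the log2 fold change was 0.37 (SE 0.064, edgeR adjusted p = 0.000123). Ndufb3 was 1.28-fold higher and Ndufb7, which forms disulphide bonds on the intermembrane side, 1.24-fold higher. Ndufa13, also known as the cell death protein GRIM-19, was 1.26-fold higher, at 47.9, 54.02 and 50.5 CPM in the Cd226-/- libraries and 41.7, 42.02 and 37.8 CPM in the WT libraries. Of the 50-base words of Ndufa13 28.5% also occur in other genes, 27.1% in Tssk6, which overlaps it on the opposite strand. Ndufa1, required for assembly of the complex, was 1.23-fold higher, and Ndufs4, an accessory subunit whose loss causes Leigh-like disease in mice, 1.21-fold higher. Ndufa2 was 1.20-fold higher. Ndufa11, which sits in the membrane arm, was 1.21-fold higher and lost its call without Cd226-/- replicate 2 (edgeR adjusted p = 0.0527).

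Ndufa12, an accessory subunit related to an assembly factor, was the only accessory gene that fell. Its level was 14.2, 13.8 and 11.1 CPM in the Cd226-/- libraries, against 18.6, 14.2 and 16.3 CPM in the WT libraries. The highest Cd226-/- library and the lowest WT library were close, and the change was near the threshold (log2 fold change -0.33 ± 0.12 SE, edgeR adjusted p = 0.0418). It was lost with the DESeq2 Wald test (adjusted p = 0.0760), and without Cd226-/- replicate 2, without Cd226-/- replicate 3, without WT replicate 1 and without WT replicate 3 (edgeR adjusted p = 0.0508, 0.228, 0.212 and 0.0927 in that order). A pseudogene shares 26.2% of its 50-base words, and how the authors treated multiply mapping reads is not given in the sources used here. Not called were Ndufb8 (60.4, 63.1 and 62.1 CPM in the Cd226-/- libraries, against 63.7, 61.3 and 59.5 CPM in the WT libraries), one of the most abundant complex I transcripts per length, and 13 other accessory genes, with log2 fold changes between -0.090 (Ndufa9) and 0.22 (Ndufb6). Ndufb4 averaged only 1.12 ± 0.521 CPM in Cd226-/- cells, against 0.978 ± 0.318 CPM in WT cells, and 37.0% of its 50-base words also occur in pseudogenes. Ndufa7 had 13 counts over all 6 libraries and was not tested.

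Ndufa4l2 fell further than any other member. It is a paralogue of Ndufa4 known as a target of the hypoxia factor HIF-1 and as a brake on complex I activity (chr10:127514967-127517154, plus strand, GRCm38). Its level was 2.43, 2.04 and 1.91 CPM in the Cd226-/- libraries, against 6.74, 5.14 and 8.64 CPM in the WT libraries. The lowest WT library was well above the highest Cd226-/- library, and the level in Cd226-/- cells was 0.309 of that in WT cells (log2 fold change -1.69 ± 0.22 SE, edgeR adjusted p = 3.63e-06). Ndufa4 itself had 69.9, 65.6 and 63.4 CPM in the Cd226-/- libraries, against 71.6, 76.3 and 70.5 CPM in the WT libraries. The WT libraries were all higher, and the test was not passed (log2 fold change -0.13 ± 0.060 SE, edgeR adjusted p = 0.0947). Ndufa4 was called lower with scaling by library size alone (edgeR adjusted p = 0.0153), without Cd226-/- replicate 1 (edgeR adjusted p = 0.0228) and with GC and length offsets (log2 fold change -0.31, edgeR adjusted p = 0.00158). Expressed as a share, Ndufa4l2 CPM was 3.47%, 3.11% and 3.01% of Ndufa4 CPM in the Cd226-/- libraries and 9.42%, 6.74% and 12.3% in the WT libraries. Per length Ndufa4l2 had 2.27 ± 0.289 in Cd226-/- cells and 7.32 ± 1.87 in WT cells CPM per kb, so that Ndufa4 was the main transcript of the pair in both genotypes.

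**Figure D4:**
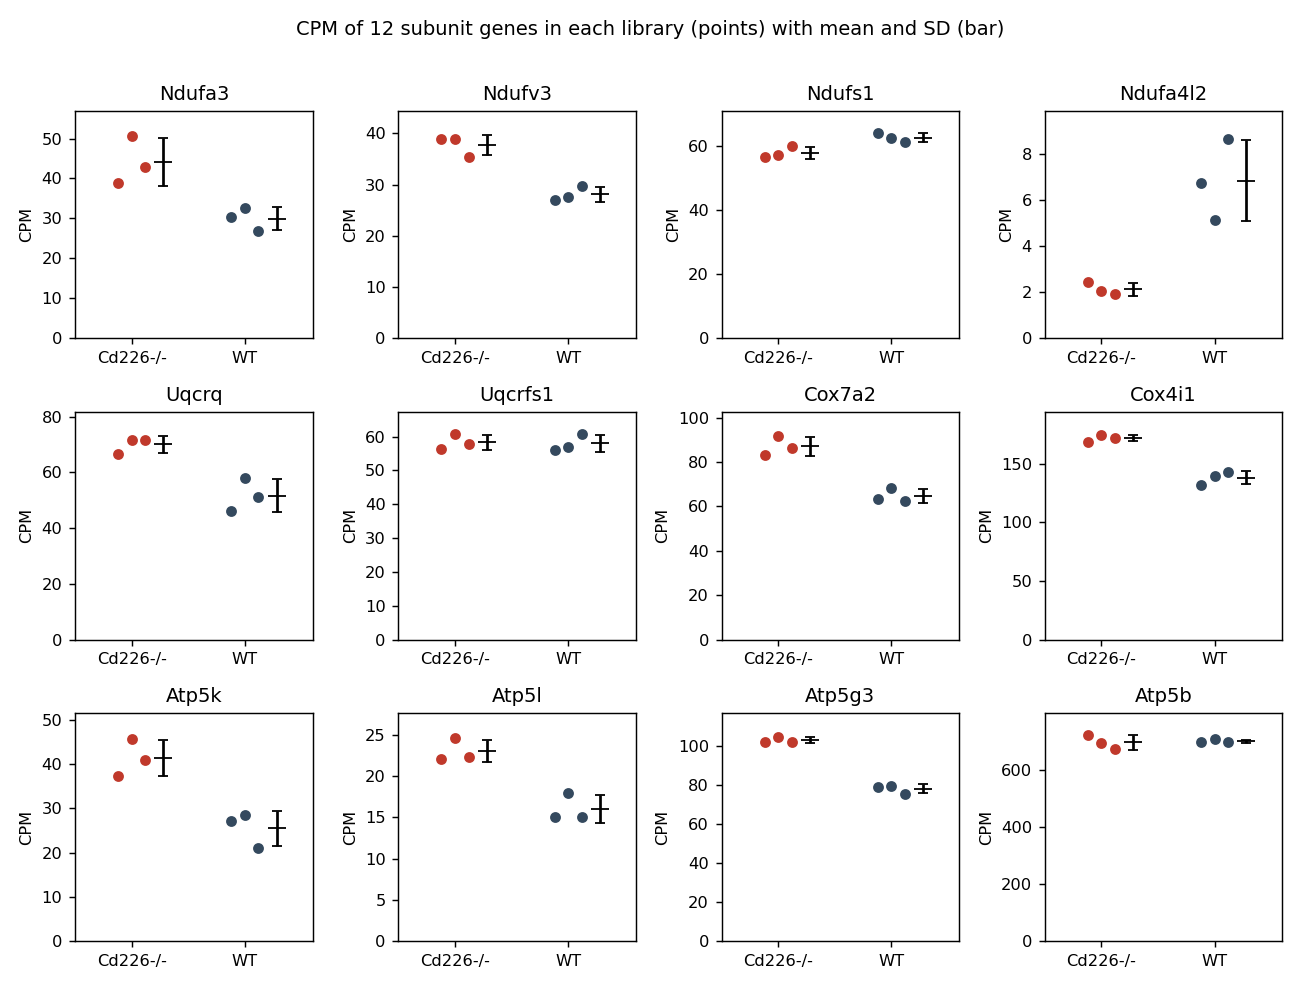
CPM of 12 subunit genes in each of 3 Cd226-/- libraries (red, left) and 3 WT libraries (dark blue, right), with the mean and 1 SD beside the points and axes from 0. Atp5k, Atp5l, Atp5g3, Ndufa3, Ndufv3, Uqcrq, Cox7a2 and Cox4i1 show separate groups with Cd226-/- above, Ndufa4l2 and Ndufs1 separate groups with Cd226-/- below, and Uqcrfs1 and Atp5b overlapping groups.

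In complex III neither gene for an electron-carrying protein was called, and 2 of 5 small subunits and 1 core protein were higher. The share higher over all genes tested was 16.1%. Median transcript lengths were 1441.5 bases for the electron-carrying proteins and 535 for the small subunits. With GC and length offsets 1 small subunit was higher and 1 lower, with a median log2 fold change of -0.092. The difference between these groups was not tested. Uqcrfs1, the Rieske iron-sulphur protein, had 56.4, 60.6 and 57.8 CPM in the Cd226-/- libraries, against 56.2, 57.03 and 60.9 CPM in the WT libraries. Cyc1, which holds the haem of cytochrome c1, had 70.1, 67.1 and 65.5 CPM in the Cd226-/- libraries, against 70.3, 70.2 and 65.95 CPM in the WT libraries. Both sets of groups overlapped (Uqcrfs1 log2 fold change 0.0043 ± 0.061 SE, edgeR adjusted p = 0.967, and Cyc1 log2 fold change -0.026 ± 0.058 SE, edgeR adjusted p = 0.775). Uqcrq, a small subunit of the ubiquinone-binding part (chr11:53427922-53430831, minus strand, GRCm38), had 66.7, 71.6 and 71.8 CPM in the Cd226-/- libraries, against 46.03, 57.97 and 51.1 CPM in the WT libraries. Its difference was 1.36-fold, with WT replicate 2 the nearest to the Cd226-/- group (log2 fold change 0.44 ± 0.072 SE, edgeR adjusted p = 8.23e-05). Uqcrb, which also lies at the ubiquinone site, averaged 83.8 ± 4.59 CPM in Cd226-/- cells, against 65.9 ± 3.93 CPM in WT cells (log2 fold change 0.35 ± 0.061 SE, edgeR adjusted p = 0.000144). Of the 50-base words of Uqcrb 43.4% also occur in other genes, 4 of them pseudogenes. Uqcrc2, a core protein on the matrix side, was 1.13-fold higher at 101, 108 and 107 CPM in Cd226-/- libraries, against 94.4, 97.003 and 89.02 CPM in WT libraries (log2 fold change 0.18 ± 0.054 SE, edgeR adjusted p = 0.0163).

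The call for Uqcrc2 was lost without Cd226-/- replicate 2, without Cd226-/- replicate 3 and without WT replicate 3 (edgeR adjusted p = 0.0713, 0.058 and 0.0998), and with scaling by library size alone (0.0861). Without Cd226-/- replicate 1, on the other hand, 5 of the 9 members of complex III were higher (17.1% of all genes tested there). Uqcrh, the hinge protein, and Uqcr10 were abundant and not called, Uqcrh with 84.1, 88.7 and 89.4 CPM in the Cd226-/- libraries, against 81.6, 82.4 and 79.97 CPM in the WT libraries, and in both genes the Cd226-/- libraries all lay above the WT libraries. Uqcr10 averaged 69.7 ± 3.91 CPM in Cd226-/- cells, against 64.1 ± 0.0822 CPM in WT cells (log2 fold change 0.12 ± 0.059 SE, edgeR adjusted p = 0.133). The smallest subunit gene, Uqcr11, had 28.6, 37.1 and 33.2 CPM in the Cd226-/- libraries, against 28.5, 29.1 and 27.2 CPM in the WT libraries, which overlap (log2 fold change 0.22 ± 0.089 SE, edgeR adjusted p = 0.064).

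Uqcrc1, the other core protein, gave values unlike those of its partner. Counts were 25, 168 and 81 in the Cd226-/- libraries and 22, 40 and 48 in the WT libraries. Cd226-/- replicate 2 was far above the others and replicate 1 was within the WT range, and the large fold change was not called (log2 fold change 1.46 ± 0.82 SE, edgeR adjusted p = 0.267). Per length it had 3.20 ± 2.67 in Cd226-/- cells and 1.15 ± 0.370 in WT cells CPM per kb, against 55.7 ± 1.92 in Cd226-/- cells and 49.3 ± 2.14 in WT cells CPM per kb for Uqcrc2, although the proteins occur together in each complex. No 50-base word of its representative transcript was shared with another gene. How reads over this gene were counted is not given in the sources used here, so its level is uncertain.

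In complex IV 7 of 10 widely used subunits and the supercomplex factor Cox7a2l were higher. The share higher over all genes tested was 16.1%. With GC and length offsets 5 of the 10 and Cox7a2l were higher. Cox4i1, which regulates the enzyme by binding ATP, had 169, 174 and 172 CPM in the Cd226-/- libraries, against 132, 139.5 and 143 CPM in the WT libraries. Cox7a2, the liver-type form of subunit 7a found in most cells (chr9:79755361-79759878, minus strand, GRCm38), had 83.3, 91.7 and 86.3 CPM in the Cd226-/- libraries, against 63.3, 68.5 and 62.6 CPM in the WT libraries. In both the Cd226-/- libraries were clearly above the WT libraries, by 1.24-fold (log2 fold change 0.31 ± 0.050 SE, edgeR adjusted p = 4.94e-05) and 1.35-fold (log2 fold change 0.43 ± 0.059 SE, edgeR adjusted p = 8.50e-06). Cox5a and Cox5b, which cap the matrix side, averaged 97.8 ± 2.03 CPM in Cd226-/- cells, against 81.1 ± 1.03 CPM in WT cells for Cox5a and 90.2 ± 5.55 CPM in Cd226-/- cells, against 72.5 ± 2.94 CPM in WT cells for Cox5b. Their log2 fold changes were 0.27 (SE 0.052, edgeR adjusted p = 0.000424) and 0.31 (SE 0.059, edgeR adjusted p = 0.000304). Other genes share 32.0% of the 50-base words of Cox5a and 25.9% of those of Cox5b. The membrane subunits Cox6c and Cox7b were 1.23-fold and 1.18-fold higher (log2 fold changes 0.30 (SE 0.057, edgeR adjusted p = 0.000278) and 0.24 (SE 0.055, edgeR adjusted p = 0.00154)).

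Cox6b1, which links the monomers of the enzyme, was 1.15-fold higher with 136, 147 and 141 CPM in the Cd226-/- libraries, against 120.4, 130.4 and 119 CPM in the WT libraries (log2 fold change 0.20 (SE 0.054, edgeR adjusted p = 0.00648)). Cox7a2l, which joins complexes III and IV into a supercomplex and which C57BL/6 mice are known to carry in a short form, averaged 101 ± 4.36 CPM in Cd226-/- cells, against 87.3 ± 1.40 CPM in WT cells. It was 1.15-fold higher (log2 fold change 0.20 ± 0.054 SE, edgeR adjusted p = 0.00571). Of the widely used subunits 3 were not called: Cox6a1, Cox8a and Cox7c. Cox6a1 had 141, 128 and 123 CPM in the Cd226-/- libraries, against 115, 131 and 133 CPM in the WT libraries, with overlapping groups and Cd226-/- replicate 1 highest of all (log2 fold change 0.048 ± 0.063 SE, edgeR adjusted p = 0.598). Cox8a averaged 133 ± 6.99 CPM in Cd226-/- cells, against 124 ± 4.21 CPM in WT cells, with no overlap (log2 fold change 0.10 ± 0.054 SE, edgeR adjusted p = 0.166). Cox7c had 9.87, 9.23 and 9.70 CPM in the Cd226-/- libraries, against 7.89, 8.12 and 8.78 CPM in the WT libraries (log2 fold change 0.21 ± 0.13 SE, edgeR adjusted p = 0.218), and 53.0% of its 50-base words also occur in pseudogenes.

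Isoforms that other tissues use in place of the common ones were absent or nearly so in both genotypes. Cox7b2, Cox8b and Cox8c had no count in any of the 6 libraries, and a count of 0 allows up to 3 counts, 0.136 to 0.180 CPM. The lung and hypoxia isoform Cox4i2 had 4, 1 and 0 counts in Cd226-/- libraries and 0, 0 and 4 in WT libraries, and the testis isoform Cox6b2 3, 1 and 1 counts in Cd226-/- libraries and 5, 1 and 8 counts in WT libraries. Cox6a2, the heart and muscle form of subunit 6a, had 11, 9 and 12 counts in Cd226-/- libraries and 3, 0 and 5 counts in WT libraries. Cox4i2, Cox6b2 and Cox6a2 had too few counts to be tested. Cox7a1, the muscle form of subunit 7a, had 9, 10 and 12 counts in Cd226-/- libraries and 1, 5 and 12 counts in WT libraries, and was not called (log2 fold change 0.90 ± 0.59 SE, edgeR adjusted p = 0.261). The 4 muscle markers together were at 0.109 to 0.240 CPM in Cd226-/- libraries and 0.117 to 0.274 CPM in WT libraries.

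In complex V 1 of 5 subunits of the catalytic head was higher, and 2 of 3 small membrane subunits, 1 of 3 c ring genes and 2 of 4 subunits of the peripheral stalk. The share higher over all genes tested was 16.1%. In the same order, median transcript lengths were 1410, 544, 731 and 823.5 bases. With GC and length offsets 0, 2, 1 and 1 genes of these parts were higher. The difference between the parts was not tested. Atp5b, the catalytic β subunit, had 722, 693 and 670.4 CPM in the Cd226-/- libraries, against 696, 706 and 697 CPM in the WT libraries. Atp5a1, the α subunit beside it, averaged 463 ± 16.7 CPM in Cd226-/- cells, against 471 ± 16.95 CPM in WT cells. Neither was called (Atp5b log2 fold change -0.0091 ± 0.049 SE, edgeR adjusted p = 0.908, and Atp5a1 log2 fold change -0.023 ± 0.050 SE, edgeR adjusted p = 0.761). Of the other head subunits only Atp5e, the small ε subunit of the rotor, was higher, at 73.4, 73.3 and 71.6 CPM in Cd226-/- libraries and 64.8, 61.1 and 59.3 CPM in WT libraries (log2 fold change 0.24 ± 0.058 SE, edgeR adjusted p = 0.00328). The γ and δ subunit genes Atp5c1 and Atp5d were not called, with log2 fold changes of 0.11 and 0.048.

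Atp5k, which encodes subunit e of the dimer-forming membrane part (chr5:108433244-108434448, minus strand, GRCm38), rose most of all members called. It had 37.4, 45.6 and 41.02 CPM in the Cd226-/- libraries, against 27.1, 28.5 and 21.03 CPM in the WT libraries. All Cd226-/- libraries were above all WT libraries, and the difference was 1.63-fold (log2 fold change 0.70 ± 0.10 SE, edgeR adjusted p = 9.34e-05). Atp5l, which encodes the neighbouring subunit g, had 22.2, 24.6 and 22.4 CPM in the Cd226-/- libraries, against 15.01, 17.998 and 15.1 CPM in the WT libraries. The groups did not overlap (log2 fold change 0.53 ± 0.10 SE, edgeR adjusted p = 0.000292), but 84.8% of its 50-base words also occur elsewhere, mostly in 12 pseudogenes, so how its reads were assigned is uncertain. Atp5j2, subunit f of the same part, averaged 69.1 ± 5.01 CPM in Cd226-/- cells, against 65.5 ± 1.74 CPM in WT cells and was not called (log2 fold change 0.077 ± 0.062 SE, edgeR adjusted p = 0.374).

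The c ring that turns with the proton flow is made from an identical protein encoded by 3 genes with different targeting sequences. Atp5g3 had 102, 105 and 102 CPM in the Cd226-/- libraries, against 79.2, 79.7 and 75.6 CPM in the WT libraries (log2 fold change 0.40 ± 0.053 SE, edgeR adjusted p = 5.18e-06). Atp5g1 had 8.16, 9.59 and 10.2 CPM in the Cd226-/- libraries, against 9.86, 8.24 and 9.09 CPM in the WT libraries, and Atp5g2 averaged 2.14 ± 0.550 CPM in Cd226-/- cells, against 1.68 ± 0.654 CPM in WT cells. The values of Atp5g1 and Atp5g2 overlapped between genotypes (log2 fold changes 0.040 (SE 0.14, edgeR adjusted p = 0.852) and 0.34 (SE 0.33, edgeR adjusted p = 0.463)), and 87.4% of the 50-base words of Atp5g2 occur in pseudogenes. Atp5g3 made up 91.3%, 89.5% and 89.2% of the summed CPM of the 3 genes in Cd226-/- libraries and 86.6%, 89.6% and 87.6% in WT libraries, which overlap. In the peripheral stalk that holds the head still, Atp5j (subunit F6) was 1.31-fold and Atp5o (the OSCP subunit) 1.20-fold higher. Their levels were 47.5, 51.3 and 51.9 CPM for Atp5j in Cd226-/- libraries, against 37.7, 37.9 and 39.2 CPM in WT libraries, and for Atp5o 85.4, 95.03 and 87.7 CPM in the Cd226-/- libraries, against 71.8, 71.99 and 78.98 CPM in the WT libraries (log2 fold changes 0.39 (SE 0.067, edgeR adjusted p = 0.000102) and 0.27 (SE 0.060, edgeR adjusted p = 0.00163)). Of the 50-base words of Atp5o 50.3% also occur in other gene entries, so how its reads were assigned is uncertain. The stalk genes Atp5f1 and Atp5h were not called, with log2 fold changes of -0.046 and 0.094. Outside the enzyme, Atp5s, Atp5sl and Atp5l2-ps were not called (0.093, -0.19 and -0.010 on the log2 scale), and Atp5c1-ps, with 1, 1 and 0 counts in Cd226-/- libraries and 4, 0 and 0 counts in WT libraries, was not tested. The electron carrier gene Cycs had 8.76, 10.3 and 8.55 CPM in the Cd226-/- libraries, against 7.45, 7.13 and 8.91 CPM in the WT libraries, which overlap (log2 fold change 0.22 ± 0.14 SE, edgeR adjusted p = 0.244).

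Short transcripts moved with genotype in these libraries as a whole, and most subunit transcripts are short, with a median of 861 bases against 2882.5 for all genes tested. Of the genes tested with a representative transcript under 750 bases, 29.0% were higher and 4.43% were lower, and their median log2 fold change was 0.25. The 33 members of that class had 15 higher (45.5%), none lower and a median of 0.22. From 750 to under 1500 bases, 10 of 24 members were higher (41.7%) and 2 were lower, against 18.7% and 9.57% of all genes, and from 1500 bases up 5 of 18 members were higher (27.8%), against 14.7%. The Spearman correlation of log2 fold change with length was -0.31 over 75 members and -0.13 over 12440 genes, which share libraries and are no independent replicates.

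When each library was given offsets for GC content and length, fitted as smooth curves over all genes, 20 members stayed higher and 10 were no longer called: Atp5e, Atp5o, Cox5a, Cox6b1, Ndufa1, Ndufa2, Ndufa6, Ndufa11, Ndufb7 and Uqcrb. Atp5e then had a log2 fold change of -0.080. Both lower members stayed lower, and Ndufa4, Ndufb8, Ndufs6 and Uqcr10 became lower. Under these offsets 16.7% of all genes were higher and 13.7% were lower, and the median log2 fold change was 0.023 over the members and 0.0047 over all genes. The offsets are fitted on the same libraries and remove any difference between genotypes that follows length, so length and genotype cannot be told apart here. With offsets complex IV still had 6 of 12 higher, complex I 8 higher and 5 lower of 36, complex III 2 higher and 1 lower of 9 and complex V 4 higher of 18. Atp5k, Ndufa3, Atp5l, Uqcrq, Ndufv3, Ndufb11, Atp5g3 and Cox7a2 were among those that stayed higher, with log2 fold changes of 0.35, 0.31, 0.31, 0.44, 0.40, 0.31, 0.25 and 0.24.

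**Figure D5:**
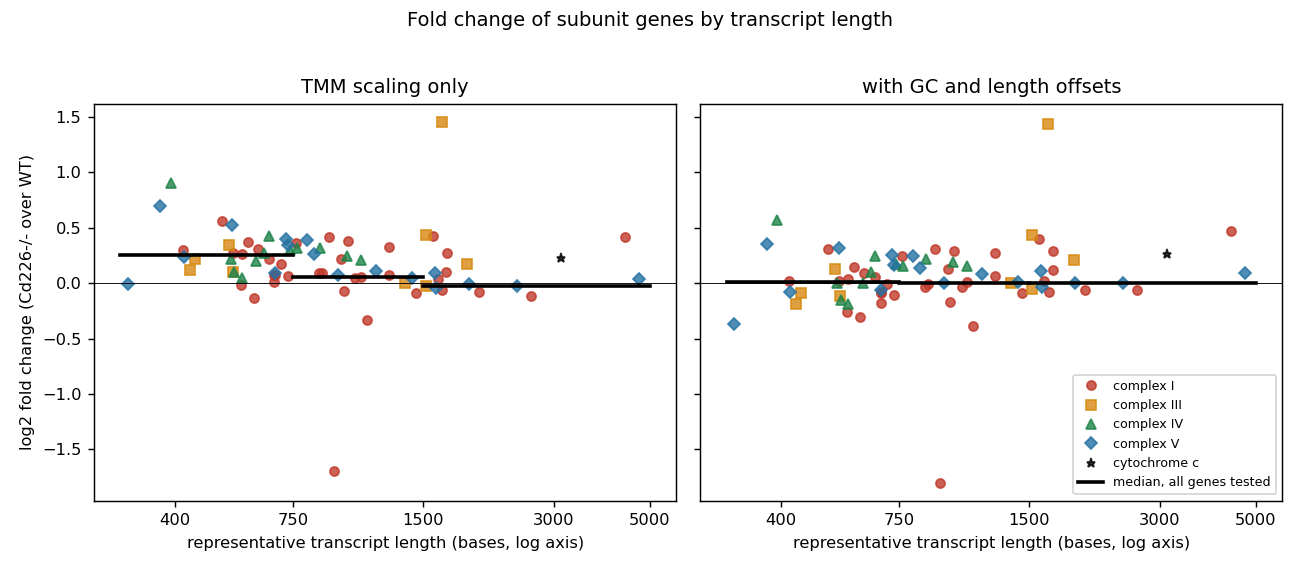
Log2 fold change (Cd226-/- over WT) of each tested member against the length of its representative transcript in bases (log axis), with TMM scaling only on the left and with GC and length offsets on the right. Symbols mark the complex, and black lines give the median of all genes tested in 3 length classes, which is 0.25, 0.060 and -0.028 on the left and within 0.0073 of 0 on the right.

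Other nuclear genes that serve the chain were called in either direction, against 16.1% higher and 14.8% lower over all genes tested. Of assembly factors of complexes I, III and IV, 6.25%, 20.0% and 13.0% were higher and 12.5%, 0% and 13.0% lower. The shares higher and lower were 0% and 14.3% for cytochrome c and coenzyme Q synthesis and 0% and 8.33% for transcriptional regulators. They were 14.3% and 7.14% for other mitochondrial proteins and 0% and 25.0% for complex V factors. The 4 genes of complex II, which feeds electrons from succinate and holds only nuclear subunits, had none called, with 195, 195 and 183 CPM in the Cd226-/- libraries, against 213, 201 and 193 CPM in the WT libraries for the flavoprotein gene Sdha. Ndufab1, the mitochondrial acyl carrier protein and a complex I subunit outside the naming pattern, averaged 28.8 ± 0.802 CPM in Cd226-/- cells, against 28.7 ± 2.15 CPM in WT cells (log2 fold change 0.0063 ± 0.082 SE, edgeR adjusted p = 0.964). Among 16 assembly factors of complex I, 1 was higher and 2 were lower: Ndufaf3 at 0.45 (SE 0.11, edgeR adjusted p = 0.00356), Foxred1 at -0.26 (SE 0.079, edgeR adjusted p = 0.0172) and Nubpl, which delivers iron-sulphur clusters, at -0.58 (SE 0.19, edgeR adjusted p = 0.0253), all as log2 fold changes. The Foxred1 call was lost without Cd226-/- replicate 1 and without WT replicate 1 (edgeR adjusted p = 0.0518 and 0.0602), and the Nubpl call without Cd226-/- replicate 2, WT replicate 1 and WT replicate 3 (edgeR adjusted p = 0.111, 0.0589 and 0.163). Complex III had 1 of 5 assembly factors higher, Uqcc2, near the threshold (0.23 (SE 0.083, edgeR adjusted p = 0.0417)). Its call was lost with library size alone, without a filter, with the DESeq2 Wald test and without any 1 of 4 of the libraries (adjusted p = 0.0758 to 0.170), and its log2 fold change was -0.050 with GC and length offsets. The 23 assembly factors of complex IV had 3 higher and 3 lower, and with GC and length offsets 4 higher and 6 lower. Only the 3 with the smallest p are named, and all 3 were higher. The risers were the copper chaperone Cox17 (96.6, 94.97 and 93.6 CPM in the Cd226-/- libraries, against 71.5, 63.9 and 63.2 CPM in the WT libraries), Higd1a, a small protein of the inner membrane (0.63 (SE 0.080, edgeR adjusted p = 3.48e-06)), and Pet100 (0.54 (SE 0.12, edgeR adjusted p = 0.00177)).

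The ATP synthase assembly factor Atpaf2 was lower (-0.35 (SE 0.092, edgeR adjusted p = 0.00588)), a call that was lost without Cd226-/- replicate 3 (edgeR adjusted p = 0.0517), and the inhibitor gene Atpif1 averaged 34.8 ± 0.305 CPM in Cd226-/- cells, against 34.2 ± 1.95 CPM in WT cells and was not called. Of 14 genes for cytochrome c and coenzyme Q synthesis none was higher, and Coq2 and Coq3, which modify the ring of coenzyme Q, were lower (-0.39 (SE 0.083, edgeR adjusted p = 0.00106) and -0.29 (SE 0.11, edgeR adjusted p = 0.0473)). The Coq3 call was lost with the replicate block (edgeR adjusted p = 0.0556), with limma-voom, the DESeq2 Wald test, either other filter and GC and length offsets (adjusted p = 0.0505 to 0.0970), and without any 1 of 5 of the libraries (edgeR adjusted p = 0.0689 to 0.188). Among 12 tested transcriptional regulators of the nuclear subunits only Pprc1, a coactivator related to PGC-1α, was called, and it was lower (-0.24 (SE 0.078, edgeR adjusted p = 0.0215)), a call that was lost without Cd226-/- replicate 2, Cd226-/- replicate 3 and WT replicate 2 (edgeR adjusted p = 0.0932, 0.116 and 0.123). Nrf1, Gabpa and Esrra, whose factors bind the motifs above, averaged 33.1 ± 3.67 CPM in Cd226-/- cells, against 35.7 ± 1.93 CPM in WT cells for Nrf1, 54.4 ± 3.26 CPM in Cd226-/- cells, against 53.3 ± 0.615 CPM in WT cells for Gabpa and 83.2 ± 2.90 CPM in Cd226-/- cells, against 80.5 ± 7.49 CPM in WT cells for Esrra. None of the 3 was called. Ppargc1a, which encodes PGC-1α, was at 0, 0.0600 and 0.109 CPM in Cd226-/- libraries and 0.0548, 0.117 and 0.0452 CPM in WT libraries. Of 14 other mitochondrial proteins the carriers Slc25a5 and Slc25a4 were higher and lower (0.18 (SE 0.049, edgeR adjusted p = 0.00885) and -0.28 (SE 0.065, edgeR adjusted p = 0.00198)), the pore gene Vdac1 was higher (0.17 (SE 0.052, edgeR adjusted p = 0.0181)), and citrate synthase, Cs, had 173, 178 and 166 CPM in the Cd226-/- libraries, against 164, 175 and 161 CPM in the WT libraries and was not called. The Slc25a5 call was lost without WT replicate 1 (edgeR adjusted p = 0.0530), and the Vdac1 call with library size alone and without Cd226-/- replicate 2, Cd226-/- replicate 3 and WT replicate 1 (edgeR adjusted p = 0.103, 0.0866, 0.0606 and 0.110 in that order).

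Of the 13 subunit genes of mitochondrial DNA 11 were tested, 6 were higher (54.5%, against 16.1% of all genes tested), 5 were not called and none was lower, with a median log2 fold change of 0.69. ND1, a membrane subunit of complex I, had 620.0, 686 and 737 CPM in the Cd226-/- libraries, against 350.0, 422 and 353 CPM in the WT libraries. ND4, another, averaged 328 ± 17.6 CPM in Cd226-/- cells, against 253 ± 10.8 CPM in WT cells, and CYTB, the haem protein of complex III, 793 ± 52.5 CPM in Cd226-/- cells, against 639 ± 39.98 CPM in WT cells. All 3 had separate groups, with log2 fold changes of 0.86 (SE 0.080, edgeR adjusted p = 7.46e-06), 0.37 (SE 0.052, edgeR adjusted p = 9.96e-06) and 0.31 (SE 0.057, edgeR adjusted p = 0.000239). COX1, the catalytic subunit of complex IV and by far the most abundant, had 6562, 6697 and 7075 CPM in the Cd226-/- libraries, against 5521, 5920.4 and 5729 CPM in the WT libraries. Copies of mitochondrial genes also lie in nuclear DNA, and how RNA was selected and reads assigned to such copies is not given in the sources used here.

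Markers of other cells differed between the genotypes as well. All 5 B cell markers were higher, at a summed 30.04 to 39.3 CPM in Cd226-/- libraries and 12.2 to 15.1 CPM in WT libraries. Of 5 fibroblast markers 4 were higher (761 to 792 CPM in Cd226-/- libraries, 494 to 574 CPM in WT libraries), and of 4 dendritic cell markers 2 were higher (67.2 to 77.5 CPM in Cd226-/- libraries, 41.4 to 58.4 CPM in WT libraries). The 6 neutrophil markers summed to 57.7 to 64.3 CPM in Cd226-/- libraries and 49.2 to 62.7 CPM in WT libraries, nearly all of it S100a8. Hepatocyte markers summed to 0.165 to 20.6 CPM in Cd226-/- libraries and 0 to 0.136 CPM in WT libraries, and T and NK cell markers summed to 2.16 to 3.64 CPM in Cd226-/- libraries and 1.93 to 3.12 CPM in WT libraries. The part of these cells in the subunit values was not tested.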

How the data were processed

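Gene expression was measured by RNA sequencing in 3 Cd226-/- and 3 WT libraries. The authors deposited a single table with raw whole-number counts for each gene and library, whose column names match the sample titles. HISAT2 alignment to GRCm38 is recorded, per the submitters' processing notes. The counting program, gene models, strandedness and treatment of multiply mapping reads were not stated in those notes, so reads of overlapping or near-identical genes cannot be told apart. Libraries held 16838527 to 21658061 counts, and 1 count was worth 0.0452 to 0.0600 CPM. Limits set by a count of 0 (3 counts) cover counting error only. No column of per-sample values was left unused and no row lacked a gene name.

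Testing used edgeR 4.0.16 in R 4.3.3: filterByExpr by genotype, TMM scaling and the robust two-sided quasi-likelihood F-test with genotype alone as a term, Benjamini-Hochberg adjustment over the 13215 genes kept and a threshold of 0.05. The coefficient of biological variation was 6.75%. SE values were derived from the log2 fold change and F. The main fit, limma-voom and the DESeq2 Wald test were also run on simulated counts, and the other steps were not. Libraries were not paired by replicate number in the main fit, since no label ties them. Deviations of same-numbered libraries from their group means correlated at 0.011, -0.013 and 0.015. With 3 libraries per genotype these values cannot exclude a shared day or batch. Every pair of libraries of a genotype differed beyond counting noise, and all 6 were kept.

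Transcript length, GC content and shared 50-base words were taken from GENCODE (build GRCm38), using the principal transcript of each gene as its representative, found for 83 of 84 members and for 94.1% of tested genes. Promoter windows are from RefSeq. Alternatives were size factors of DESeq2 1.42.0, library size alone, no filter, a minimum mean of 5 CPM, the DESeq2 Wald test, limma-voom (limma 3.58.1), a replicate block, the removal of each library, GC and length offsets (lowess span 0.3) with and without the block, and a threshold of 0.01. Added after seeing the data were offsets for length or GC content alone and a comparison of Cd226-/- replicate 1 by itself with WT, which assumes that it varies like the WT libraries.

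The members, the companion lists and the markers were chosen with earlier results of these data known. A member of complex I covered by the naming rule is counted with the others and not reported here by name or in the figures that label genes. Genes were named by rule: every called member, the 3 highest per length in each complex, isoform sets, core subunits, members without a test, and up to 3 called members by p of each companion list. Cd226, Alb, COX1, Ndufs6, the regulators not called, Sdha, Cs, Atpif1, Ndufab1 and the other uncalled members named were added outside this rule, after their values were seen.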

Additional observations from a re-analysis of the deposited data

How the results depend on the processing

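With the replicate number as a block, 31 members were higher and 2 were lower, and all 32 called members kept their call; over all genes 2185 were higher and 1952 lower. Not every library correlated best with its own number. Higher members numbered 20 to 33 under the 16 alternatives and the 3 added after seeing the data. Of the 32 called members 30 kept their call under the other scalings, filters, tools and the block, 27 without any 1 library, 22 with GC and length offsets, 28 at an adjusted p under 0.01 and 21 when Cd226-/- replicate 1 alone was compared with WT. The other result to fall by over 1.5 times at 0.01 was the number of genes lower in Cd226-/- cells over the whole table, 1167 against 1956. The number of lower members, 2 of complex I, was 4 with library size alone, 1 with the filter at 5 CPM, with the DESeq2 Wald test, at 0.01 and for replicate 1 alone, and 1 to 3 when 1 library was left out. With GC and length offsets it was 6, with the block as well 7 and with length offsets alone 5, of which 5 each were of complex I, and 1 of complex III under the first 2 and 1 of complex IV with the block. Higher members of complex I numbered 8 under all 3 and 7 with replicate 1 alone, and those of complex III 2 to 5 when 1 library was left out.

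Medians of the log2 fold change under GC and length offsets, the same with the block, and length offsets alone were 0.023, 0.022 and 0.035 for all members, 0.015, 0.015 and 0.0074 for complex I, -0.0010, -6.15e-05 and -0.020 for complex III, 0.16, 0.16 and 0.15 for complex IV, 0.046, 0.046 and 0.045 for complex V. With library size alone the median was 0.12 over all members, 0.20 in complex IV and 0.040 in complex V, and the median of all genes -0.058. With replicate 1 alone it was 0.13 over all members and 0.054 in complex III, and with GC offsets alone 0.11 in complex V. Without 1 library the complex V median lay between 0.083 and 0.13.

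Log2 fold changes that changed sign under these 3 offsets, in the same order, were -0.080, -0.081 and -0.061 for Atp5e, -0.18, -0.18 and -0.16 for Ndufb8, -0.12, -0.12 and -0.13 for Uqcrh, -0.19, -0.20 and -0.17 for Uqcr10, -0.15, -0.15 and -0.13 for Cox8a, -0.19, -0.19 and -0.17 for Cox6a1, 0.0032, 0.0028 and 0.0032 for Atp5b, 0.0061, 0.0064 and 0.0016 for Atp5a1, -0.0010, -6.15e-05 and -0.020 for Uqcrfs1, -0.050, -0.049 and -0.028 for Uqcc2. Of these Atp5e and Uqcc2 were called without offsets, and none of the 3 values of either was called. Other changes of sign were found with library size alone for Ndufb8 (-0.044), Cox6a1 (-0.0063), Atp5g1 (-0.012) and Uqcrfs1 (-0.049), without a filter for Ndufb8 (-0.0032) and Uqcrfs1 (-0.0080), with the filter at 5 CPM for Atp5b (0.0022), with GC offsets alone for Ndufb8 (-0.0047) and with replicate 1 alone for Ndufb8 (-0.020), Atp5b (0.052), Atp5g1 (-0.15), Atp5g2 (-0.068), Uqcrfs1 (-0.037), Cyc1 (0.034) and Ndufs6 (0.026), in genes that were not called either way. When 1 library was left out, the ranges that include a change of sign were -0.017 to 0.032 for Ndufb8, -0.018 to 0.094 for Cox6a1, -0.039 to 0.019 for Atp5b, -0.055 to 0.0021 for Atp5a1, -0.030 to 0.13 for Atp5g1, -0.024 to 0.039 for Uqcrfs1, -0.058 to 8.69e-05 for Cyc1, -0.048 to 0.012 for Ndufs6.

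Depth limits the members with few counts: Cox7a1, Ndufb4 and Atp5g2 had SE values of 0.33 to 0.59 on the log2 scale. The causes of these dependences were not tested, apart from the offsets, which by construction remove any difference that follows length.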

Other observations

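Mitochondrial ribosomal proteins, which build the ribosomes that translate the subunits encoded by mitochondrial DNA, were examined after the values of the subunits had been seen. Of 76 tested genes 4 were higher and 4 were lower (5.26% each, edgeR quasi-likelihood test, adjusted p under 0.05), against 16.1% and 14.8% of all genes tested. The median log2 fold change of the 76 genes was -0.056. In 6 of the 76 genes (7.89%) every Cd226-/- library lay above every WT library, against 22.1% of all genes tested. In 17 (22.4%) every Cd226-/- library lay below every WT library, against 22.3% of all genes tested.

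The 7 pseudogene names left out had few counts. Atp5l-ps1 had 13, 8 and 7 counts in the Cd226-/- libraries and 11, 9 and 11 in the WT libraries, Atp5k-ps2 had 4, 6 and 3 counts in the Cd226-/- libraries and 11, 0 and 4 in the WT libraries, and Uqcrh-ps1 had 0, 0 and 2 counts in the Cd226-/- libraries and 2, 5 and 2 in the WT libraries. Atp5k-ps1 had 1 count in a library of each genotype. No count was listed for Atp5k-ps3, Atp5k-ps4 and Atp5l-ps2.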
